A study of Homo sapiens with 11 samples.

Results

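The 32 genes described here encode the machinery that moves new proteins into or across the membrane of the endoplasmic reticulum (ER). They were chosen by name from the 38019 gene names in the deposited count table. All 32 were found there. They comprise the SEC61 channel (4 genes), partners of the channel (3), the signal sequence receptor or SSR complex, also called TRAP (4), signal peptidase (5), the signal recognition particle with the beta subunit of its receptor (7), and the ER membrane protein complex, or EMC (9). Of the 32 genes, 31 passed the filter on low counts and were tested. The EMC subunit MMGT1, or EMC5, was not among the 9 and is given below with other pathway genes.

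The cells were HEK293T, an established human embryonic kidney line, of wild-type genotype as labelled, and all were treated for 6 h. The 11 conditions were vehicle (0.1% DMSO), thapsigargin (Tg) at 500 nM, the compound AA147 at 10 µM, and the compound AA132 at 0.1, 0.3, 1, 3, 6, 10, 15 and 30 µM. Tg inhibits the pump that fills the ER with calcium, which disturbs protein folding there. The series title presents AA147 and AA132 as pharmacological regulators of ER proteostasis. Each condition had 3 numbered libraries, and the labels do not say whether these came from separate cultures, so p-values measure the spread between these libraries, which may be technical. All treatments were compared with the same 3 vehicle libraries.

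Most secreted and membrane proteins carry a hydrophobic signal that is bound by the signal recognition particle (SRP) as it leaves the ribosome. The SRP receptor then hands the ribosome to the SEC61 channel, where the SSR complex and other partners help the chain to enter, and signal peptidase cuts off the signal. EMC inserts some membrane segments that SEC61 handles poorly, and the GET route serves proteins with a signal at their tail. Under ER stress the unfolded protein response, through the transcription factors XBP1s and ATF6 and the kinase PERK, raises many genes of ER folding and transport.

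Library totals ran from 36.36 to 37.96 M counts, apart from AA132 10 µM library 3 with 32.27 M. Vehicle library 1 stood apart from the other vehicle libraries: the chi-square per degree of freedom was 59.4 against library 2 and 46.2 against library 3, while libraries 2 and 3 differed by 7.46. Library 1 also stood apart in AA132 10 µM (36.1 and 33.7, against 6.52 between the other two) and in AA147 (23.0 and 22.2, against 4.83). HMOX1, a gene of the oxidative stress response, went against the dose label in 2 AA132 libraries: it read 39.8, 11.5 and 12.1 CPM at 1 µM, high in library 1, and 49.3, 43.9 and 14.2 CPM at 3 µM, low in library 3, beside 16.4, 11.1 and 11.9 CPM in vehicle. Results that change without these libraries are given below with and without them. HSPA5, the ER chaperone BiP, averaged 959.7 ± 72.6 CPM (counts scaled to library size, mean ± SD, n = 3) in vehicle and 11023 ± 276 CPM under Tg. VIM, an intermediate filament gene that HEK293T cells express, had at least 702 CPM in every library, while the blood marker PTPRC reached no more than 0.053 CPM and the fibroblast marker COL3A1 no more than 0.57 CPM. PAX2, also listed beforehand as a gene that these cells express, read only 0.407 to 1.53 CPM, so it did not stand clearly apart from COL3A1. VIM was lower under Tg (log2 -0.79 ± 0.078 SE, adjusted p = 8.32e-10 in edgeR), as was the neurofilament gene NEFL (-0.51 ± 0.077, adjusted p = 2.76e-06 in edgeR), while NEFM was higher (0.38 ± 0.094, adjusted p = 0.00201 in edgeR). Their part in the members' values was not tested. In bulk RNA, fewer cells and less RNA per cell cannot be told apart.

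Tg was compared with vehicle to ask how general ER stress moved these genes. Most of the tested members were higher: 20 of 31 were higher, 2 were lower and 9 were not called. A call here means an adjusted p (Benjamini-Hochberg, over all genes) below 0.05 in the edgeR quasi-likelihood test. Over all 17792 genes tested, 31.2% were called in this comparison, 16.2% higher and 15.0% lower. The median log2 fold change was 0.53 over the members and 0.0049 over all genes. By complex, the genes called higher were all 4 SSR genes, 3 of 4 SEC61 genes, 2 of 3 channel partners, 3 of 5 signal peptidase genes, 6 of 7 SRP and receptor genes, and 2 of 8 tested EMC genes. In EMC 1 gene was lower and 5 were not called, so 37.5% of its tested genes were called, near the share over all genes. Median log2 fold changes were 1.28 for SSR, 1.13 for channel partners, 0.76 for signal peptidase, 0.72 for SEC61, 0.51 for SRP and its receptor, and 0.052 for EMC.

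**Figure D1:**
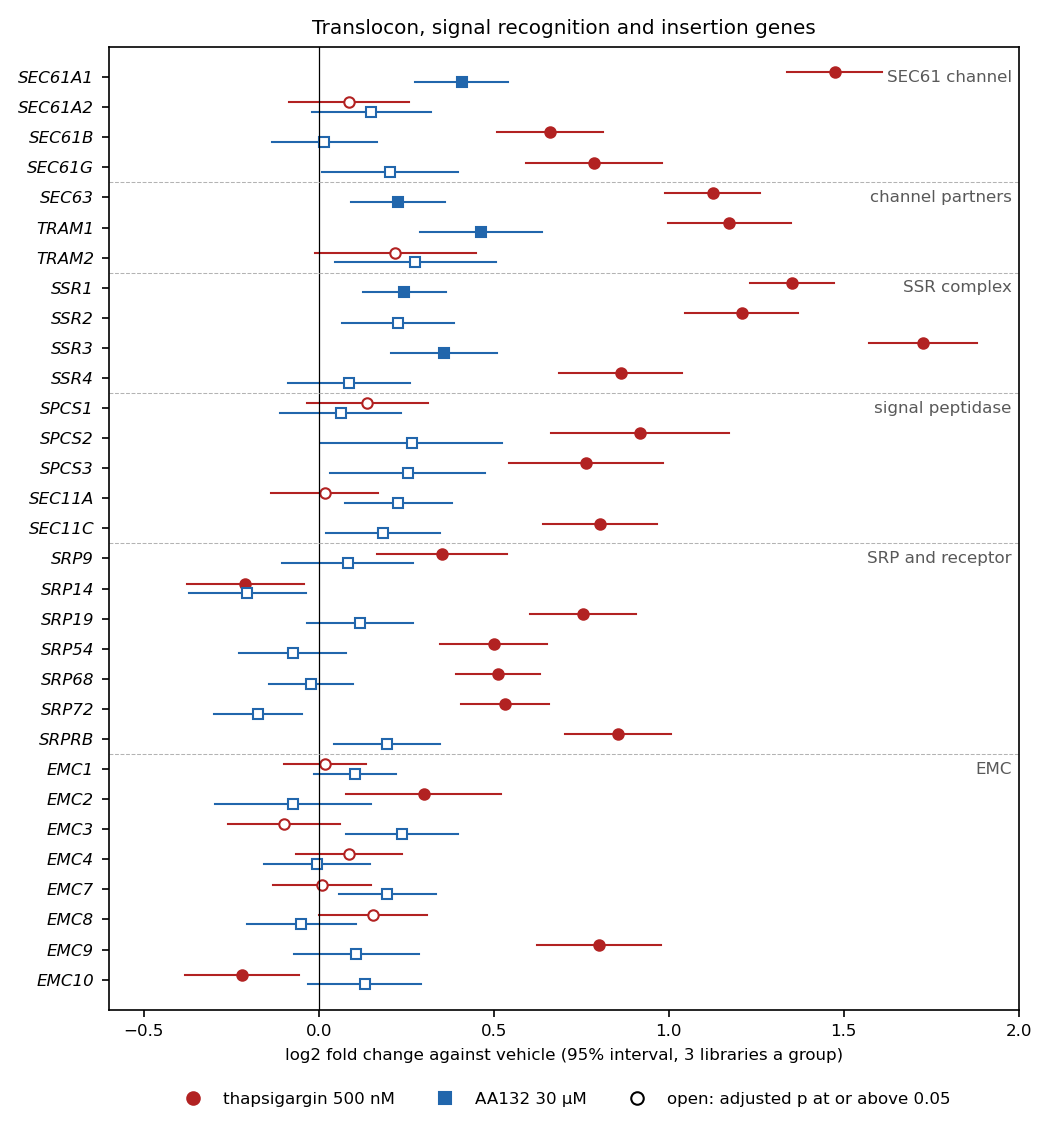
Log2 fold change against vehicle (x axis) of each of the 31 tested genes, grouped by complex (y axis), for Tg (red circles) and AA132 at 30 µM (blue squares). Bars are 95% intervals from the edgeR fit with 3 libraries a group, and filled symbols have an adjusted p under 0.05. The Tg points of SSR3 (1.73) and SEC61A1 (1.47) lie farthest to the right, and the EMC genes other than EMC9 (0.80) lie between -0.22 and 0.30.

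SEC61A1 encodes the alpha subunit, which forms the pore itself (GENCODE v44 on GRCh38, chr3:128051641-128071705, plus strand). It stood at 166, 180.4 and 191 CPM in the vehicle libraries and at 522, 507 and 464 CPM under Tg. Every Tg library was far above every vehicle library, a 2.78-fold rise (log2 fold change 1.47 ± 0.066 SE, adjusted p = 2.53e-18). SEC61A2 (chr10:12129637-12169961, plus strand) encodes a second form of the same subunit. Its libraries read 73.4, 87.6 and 82.1 CPM in vehicle and 85.6, 86.8 and 85.7 CPM under Tg, with the Tg values inside the vehicle range. The difference did not pass the test (log2 fold change 0.086, 95% interval -0.085 to 0.26, adjusted p = 0.477). The small subunits that complete the channel both rose, with no overlap between groups. SEC61G, the gamma subunit, went from 82.2, 75.6 and 68.9 CPM to 135, 119.7 and 136 CPM (log2 0.79 ± 0.095, adjusted p = 5.69e-08). SEC61B, the beta subunit, went from 191, 178 and 182 CPM to 297, 279 and 293 CPM (log2 0.66 ± 0.074, adjusted p = 1.20e-08).

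Among the channel partners, SEC63 recruits BiP to the lumenal side of the pore. Its libraries read 163, 189.5 and 176 CPM in vehicle and 375, 377 and 403 CPM under Tg, without overlap (log2 fold change 1.13 ± 0.067, adjusted p = 2.91e-15). TRAM1, a membrane protein that contacts the entering chain, stood at 127, 161 and 169.6 CPM in vehicle, where library 1 was the low one. Under Tg it stood at 355, 352 and 324 CPM, a log2 change of 1.17 ± 0.087 (adjusted p = 7.24e-13), which was 1.05 without vehicle library 1. Its relative TRAM2 had 19.6, 28.3 and 27.9 CPM in vehicle, again lowest in library 1, and 28.6, 29.6 and 30.1 CPM under Tg, all just above the highest vehicle library. TRAM2 was not called (log2 fold change 0.22, interval -0.012 to 0.45, adjusted p = 0.148).

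The SSR genes gave the highest median of the complexes. SSR3, the gamma subunit (chr3:156539553-156555149, minus strand), was even across vehicle at 55.8, 55.2 and 55.9 CPM and reached 185, 189.9 and 177 CPM under Tg. That is a 3.31-fold rise (log2 1.73 ± 0.076, adjusted p = 1.47e-18), the largest of the 31 tested members. SSR1, the alpha subunit, went from 262, 286 and 255 CPM to 679.9, 683 and 686 CPM (log2 1.35 ± 0.059, adjusted p = 1.17e-18). SSR2, the beta subunit, went from 225, 199 and 209 CPM to 494, 457 and 514 CPM (log2 1.21 ± 0.079, adjusted p = 3.68e-14). For these 3 subunits the groups lay well apart. SSR4, the delta subunit, read 161, 117 and 114 CPM in vehicle, highest in library 1, and 243, 223 and 246 CPM under Tg. Its rise of 0.86 ± 0.086 (log2, adjusted p = 9.10e-10) was the smallest of the complex.

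Signal peptidase has a catalytic subunit in either of 2 forms, SEC11A (chr15:84669538-84716460, minus strand) and SEC11C (chr18:59139866-59158832, plus strand). SEC11C stood at 144, 134 and 123 CPM in vehicle and 235, 213 and 252 CPM under Tg, without overlap (log2 0.80 ± 0.080, adjusted p = 9.90e-10). SEC11A read 335, 299 and 284 CPM and 316, 303 and 311 CPM, and its groups overlapped (log2 0.017, interval -0.14 to 0.17, adjusted p = 0.893). Of the accessory subunits, SPCS2 went from 8.20, 8.93 and 8.11 CPM to 16.6, 13.8 and 17.2 CPM (log2 0.92 ± 0.13, adjusted p = 5.47e-07). SPCS3, an accessory subunit needed for cleavage, went from 20.9, 27.2 and 24.2 CPM to 37.6, 40.3 and 44.8 CPM (log2 0.76 ± 0.11, adjusted p = 9.87e-07). Both lay above vehicle in every Tg library. SPCS1 was not called (log2 0.14, interval -0.034 to 0.31, adjusted p = 0.228), and it shares 2705 exon bases with NEK4 on the opposite strand, so its reads may be mixed.

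In the SRP, SRP54 binds the signal, SRP19 helps SRP54 onto the RNA, and SRP68 with SRP72 forms a dimer on the same RNA. All 4 genes rose under Tg. SRP19 moved most, from 43.4, 44.3 and 41.5 CPM to 68.6, 79.2 and 70.2 CPM (log2 0.75 ± 0.074, adjusted p = 6.09e-10). SRP54 went from 107, 118 and 97.9 CPM to 149, 154 and 153 CPM, and SRP68 from 296, 276 and 273 CPM to 399, 394 and 411 CPM. SRP72 went from 145, 167 and 184 CPM, lowest in library 1, to 233, 239.9 and 245 CPM. The log2 changes of SRP54, SRP68 and SRP72 were close to each other, at 0.50, 0.51 and 0.53, with SE of 0.075, 0.059 and 0.062 (adjusted p = 2.81e-06, 2.06e-08 and 2.41e-08). SRPRB, the membrane anchor of the SRP receptor, went from 65.6, 50.97 and 55.99 CPM to 107, 101 and 104 CPM without overlap (log2 0.86 ± 0.074, adjusted p = 3.69e-11). SRP9 and SRP14 pair up in the domain that slows the ribosome, and their calls went in opposite directions. SRP9 read 26.96, 33.7 and 29.8 CPM in vehicle and 37.04, 39.8 and 38.7 CPM under Tg (log2 0.35 ± 0.092, adjusted p = 0.00316). SRP14 read 186, 152 and 168 CPM in vehicle, highest in library 1, and 143, 144 and 151 CPM under Tg (log2 -0.21 ± 0.082, adjusted p = 0.0490). The SRP14 call was lost in 6 of 11 alternatives, at adjusted p from 0.0545 to 0.232. It was lost without vehicle library 1 (0.232) or 3 (0.0821), without Tg library 1 (0.106) or 2 (0.119), and with the library number as a block (adjusted p = 0.0545).

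EMC9 (chr14:24138959-24141591, minus strand) was the EMC gene that rose most. EMC8 (chr16:85771758-85799608, minus strand) and EMC9 are paralogs that take the same place in the complex. EMC9 stood at 43.01, 32.03 and 33.03 CPM in vehicle, highest in library 1, and at 64.3, 56.4 and 67.7 CPM under Tg (log2 0.80 ± 0.087, adjusted p = 6.20e-09). EMC8 read 60.1, 45.5 and 49.2 CPM, also highest in library 1, and 56.8, 59.7 and 56.1 CPM under Tg (log2 0.16 ± 0.076, adjusted p = 0.120). Without vehicle library 1 the EMC8 difference passed the test, with an adjusted p of 0.00229. EMC2, which holds EMC8 or EMC9 on the cytosolic side, went from 23.8, 23.9 and 21.7 CPM to 28.5, 28.03 and 28.9 CPM (log2 0.30 ± 0.11, adjusted p = 0.0335). Its call was lost in 6 of 11 alternatives at adjusted p from 0.0562 to 0.122, among them the fits without vehicle library 2 or 3 and without any 1 Tg library. EMC10, a lumenal subunit, was lower, at -0.22 ± 0.080 (adjusted p = 0.0348). Its vehicle libraries read 211, 156 and 172 CPM, highest in library 1, against 153, 159 and 152 CPM under Tg. That call was lost in 5 alternatives at adjusted p from 0.0515 to 0.37, among them the fits without vehicle library 1 (0.370) and without any 1 Tg library.

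EMC1, EMC3, EMC4 and EMC7 were not called under Tg, with log2 changes of 0.017, -0.099, 0.087 and 0.0095. EMC3 is the insertase-like subunit in the membrane. Their 95% intervals ran from -0.10 to 0.13 for EMC1, -0.26 to 0.062 for EMC3, -0.065 to 0.24 for EMC4 and -0.13 to 0.15 for EMC7. EMC6 was listed at 0 in all 33 libraries and was not tested. In GENCODE v44 it shares 571 exon bases with P2RX5-TAX1BP3 on the opposite strand, an entry that had 5398 to 7428 counts a library. Exons of 21 of the 32 members overlap an annotated gene on the opposite strand, and the use of strand in counting is not given in the sources used here, so such reads cannot be told apart. Exons of 4 members, SSR1, SRP19, SRPRB and EMC3, overlap a gene on the same strand, where strand would not separate the reads. SRP19 shares the most there, 1470 bases with the pseudogene ZRSR2P1.

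Promoter letters were compared because members of the same complex differed under Tg. RefSeq promoter windows on GRCh38.p14, from 250 bases before to 50 bases after a start, were found for 29 of the 32 members. None was found for TRAM1, SPCS1 and EMC2. Both strands were searched for ACGTG, the core of sites bound by XBP1s and ATF6 as well as other factors, and for TGACGTG, a longer form that contains it. Both strands were also searched for the ER stress elements ERSE and ERSE-II and for the amino acid response letters TTGCATCA. ACGTG was present for 12 of 18 members that were higher under Tg (23 windows). The higher members with a window but without ACGTG were SEC61B, SSR2, SPCS3, SRP9, SRP68 and SRP72. Of the 11 members not called higher (13 windows), EMC6 among them, 0 had ACGTG. Over all 27305 genes with a window, 24.9% had ACGTG, and over the 12337 of these that were tested the share was 31.4%. Among tested genes that were higher under Tg the share was 38.3%, and among those not higher it was 29.9%.

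TGACGTG was found for SEC61A1, SSR3, SSR4 and SRP19, all higher under Tg, against 2.40% of all genes with a window, 3.21% of tested genes and 5.93% of tested genes higher under Tg. ERSE, ERSE-II and TTGCATCA were in no window of the 29 members. Their shares of all 35116 windows were 0.0769%, 0.0541% and 0.866%. A match describes letters and does not show a bound site. The first 4 stretches are those of paralogs of which 1 rose under Tg and the other did not pass the test. Each runs from base -120 to base -1 relative to a RefSeq start, 5′ to 3′ on the strand of the gene, with ACGTG on either strand in capitals.
SEC11C, chr18:59139764-59139883, plus strand: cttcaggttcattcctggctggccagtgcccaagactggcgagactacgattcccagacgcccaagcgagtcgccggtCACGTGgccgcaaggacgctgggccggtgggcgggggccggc
SEC11A, chr15:84716140-84716259, minus strand: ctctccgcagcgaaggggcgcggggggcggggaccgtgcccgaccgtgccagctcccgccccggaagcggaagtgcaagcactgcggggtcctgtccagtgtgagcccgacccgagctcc
EMC9, chr14:24141592-24141711, minus strand: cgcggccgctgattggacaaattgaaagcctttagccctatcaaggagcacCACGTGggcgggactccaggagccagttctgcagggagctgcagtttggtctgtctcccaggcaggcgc
EMC8, chr16:85799545-85799664, minus strand: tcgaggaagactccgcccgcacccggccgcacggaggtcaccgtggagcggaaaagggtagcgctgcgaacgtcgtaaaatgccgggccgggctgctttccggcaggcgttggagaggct
SEC11C holds CACGTG, which contains ACGTG on both strands, at bases -42 to -37, and EMC9 holds it at bases -69 to -64. SEC11A and EMC8 have no capitals.

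Members with the largest rises are shown next, with TGACGTG also in capitals. All of them held ACGTG, while the window of SSR2, which also rose, did not. HSPA5 is added as the textbook promoter with an ERSE, whose letters are in capitals there. The SSR3 and HSPA5 stretches run from base -120 to base -1, SSR1 from base -150 to base -1, and SEC61A1 from base -60 to base 6.
SSR3, chr3:156554126-156554245, minus strand: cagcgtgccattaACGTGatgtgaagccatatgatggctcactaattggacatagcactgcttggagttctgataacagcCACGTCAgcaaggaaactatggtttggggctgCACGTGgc
SSR1, chr6:7313200-7313349, minus strand: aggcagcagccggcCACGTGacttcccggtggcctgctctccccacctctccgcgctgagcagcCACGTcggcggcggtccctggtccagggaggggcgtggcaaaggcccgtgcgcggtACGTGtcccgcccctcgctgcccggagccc
SEC61A1, chr3:128052377-128052442, plus strand: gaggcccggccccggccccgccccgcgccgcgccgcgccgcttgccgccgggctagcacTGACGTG
HSPA5, chr9:125241344-125241463, minus strand: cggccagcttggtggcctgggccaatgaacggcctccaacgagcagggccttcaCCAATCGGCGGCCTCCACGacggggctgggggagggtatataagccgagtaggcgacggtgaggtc
In SSR3 and in SSR1 the capitals fall in 3 places, and the middle place in SSR3 is TGACGTG on the opposite strand. In SEC61A1 the letters TGACGTG lie across the start. DNAJB9, a textbook XBP1s target, also had ACGTG in its window.

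The pairs of related genes were then set beside each other within each library, as the ratio of their counts, which does not depend on scaling between libraries. The pairs were chosen after their values were seen, so the ratios are a description with no test. SEC61A1 over SEC61A2 was 2.27, 2.06 and 2.32 in vehicle and 6.10, 5.84 and 5.42 under Tg. TRAM1 over TRAM2 was 6.46, 5.67 and 6.08 in vehicle and 12.4, 11.9 and 10.8 under Tg. In both pairs every Tg library was above every vehicle library. SEC11C over SEC11A was 0.431, 0.446 and 0.434 in vehicle and 0.744, 0.704 and 0.812 under Tg. EMC9 over EMC8 was 0.715, 0.704 and 0.671 in vehicle and 1.13, 0.945 and 1.21 under Tg. These pairs did not overlap either. The ratio compares counts, not molecules, because transcripts of different length give different numbers of reads.

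**Figure D2:**
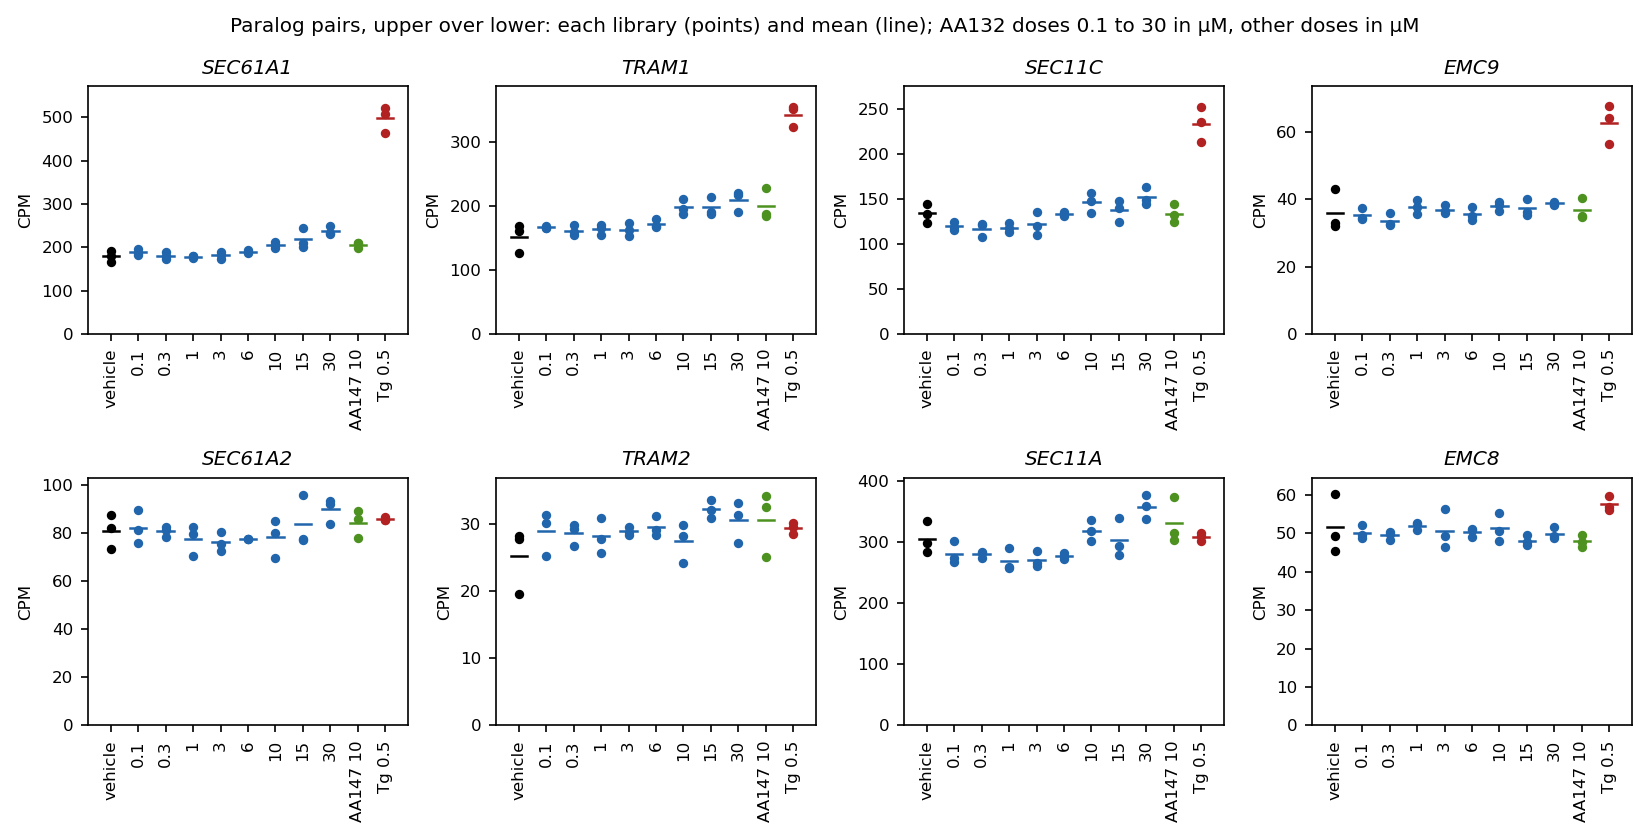
CPM (y axis, from 0) of each library (points) and the mean of 3 (line) for 4 pairs of related genes, the upper row over its partner in the lower row, in vehicle, 8 AA132 doses, AA147 and Tg (x axis, doses in µM). In the upper row the Tg points lie above all others, while SEC61A2, SEC11A and EMC8 overlap vehicle and TRAM2 lies just above it.

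**Figure D3:**
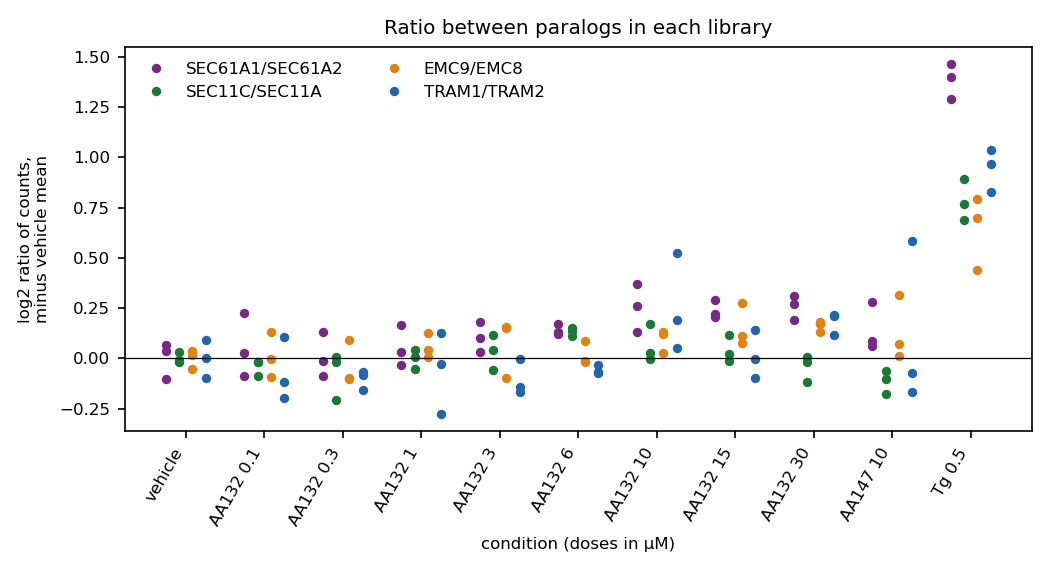
Log2 ratio of counts between related genes in each library, with the vehicle mean set to 0 (y axis), for the 11 conditions (x axis, doses in µM). Each point is 1 library, and the Tg libraries of all 4 pairs lie above every vehicle library.

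At AA132 30 µM the mean ratio was 2.65 ± 0.110 for SEC61A1 over SEC61A2 (SD, n = 3), against 2.22 ± 0.139 in vehicle and 5.79 ± 0.344 under Tg. TRAM1 over TRAM2 was 6.87 ± 0.263 at 30 µM against 6.07 ± 0.393 in vehicle, and EMC9 over EMC8 was 0.778 ± 0.0138 against 0.697 ± 0.0229. For SEC11C over SEC11A it was 0.424 ± 0.0194 at 30 µM, against 0.437 ± 0.00808 in vehicle and 0.753 ± 0.0549 under Tg. At this dose the libraries of the SEC61A1, TRAM1 and EMC9 pairs did not overlap those of vehicle, and the SEC11C pair did overlap. The TRAM1 pair was separated narrowly, with its lowest 30 µM library at 6.57 and the highest vehicle library at 6.46. At AA132 6, 10 and 15 µM the SEC61A1 pair also lay above every vehicle library (lowest 2.41, 2.42 and 2.55, highest vehicle 2.32). The EMC9 pair did so at 15 µM (lowest 0.734, highest vehicle 0.715). SEC11C over SEC11A lay above vehicle in every AA132 6 µM library (0.486, 0.472 and 0.480). Under AA147 it lay below vehicle in every library (0.386, 0.407 and 0.419). How often ratios between other genes separate in this way was not counted.

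Other genes of the pathway, listed by role but with earlier results of these data known, gave a mixed picture under Tg. Of 22 such genes, 5 were higher, 4 were lower and 13 were not called, with a median log2 change of -0.063. The share called was 40.9%, beside 31.2% of all genes, 16.2% higher and 15.0% lower. SRPRA, the other subunit of the SRP receptor, was higher by 0.79 ± 0.056 (adjusted p = 2.70e-13), from 144, 144 and 132.4 CPM to 239, 235 and 249 CPM. HM13, the signal peptide peptidase that cuts the released signals, was higher by 0.71 ± 0.072 (adjusted p = 1.15e-09). SEC62, a partner of SEC63, was higher by 0.31 ± 0.095 (adjusted p = 0.0123). CAMLG, a receptor of the GET route, and CCDC47, a chaperone of membrane segments, were higher by 0.27 and 0.22 (adjusted p = 0.0209 and 0.0154).

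The 4 lower calls were NCLN, NOMO1, NOMO3 and GET3. NCLN, which forms a complex with NOMO and TMEM147, was at -0.40 ± 0.079 (adjusted p = 1.52e-04). NOMO1 and NOMO3 were at -0.30 and -0.23 (adjusted p = 9.33e-04 and 0.0122), while NOMO2 was not called at -0.12. The NOMO genes are near-identical copies, so the split of reads between them is uncertain. TMEM147, TMCO1 and WDR83OS were not called. Nor was the EMC subunit MMGT1 (EMC5), at 13.5 ± 4.02 CPM in vehicle and 16.4 ± 1.73 CPM under Tg (mean ± SD, n = 3). GET3, the ATPase of the GET route, was at -0.27 ± 0.085 (adjusted p = 0.0122). The cytosolic chaperones of that route, BAG6, SGTA, UBL4A and GET4, were not called.

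AA132 was compared with vehicle at 8 doses to ask at which dose the same genes moved. At 0.1, 0.3 and 1 µM the edgeR test called 0 members and 0% of all genes. At an unadjusted p under 0.05 there were 1, 2 and 4 members and 798, 980 and 1056 of all genes, and DESeq2 called 0 members at each of these doses. At 3 and 6 µM 0 members were called as well, beside 0.118% and 1.07% of all genes. The unadjusted counts there were 3 and 6 members and 1635 and 2182 of all genes, and DESeq2 again called 0 members, with 63 and 346 of all genes. Without vehicle library 1, SRPRB passed the test at 6 µM (adjusted p = 0.0122), and 506 of all genes were called in place of 190.

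The first calls came at the higher doses and all were rises. At 10 µM TRAM1 was called, 1 member of 31, beside 1.41% of all genes, 1.03% higher. At 15 µM SEC61A1 and TRAM1 were called, 2 of 31, beside 2.76% of all genes, 1.97% higher. At 30 µM SEC61A1, SEC63, TRAM1, SSR1 and SSR3 were called, 5 of 31, beside 7.05% of all genes, 3.86% higher. The median log2 change of the members was 0.12, 0.037 and 0.15 at these doses, and at the highest that of all genes was -0.0013. None of the signal peptidase, SRP or EMC genes was called in the edgeR fit at 30 µM.

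**Figure D4:**
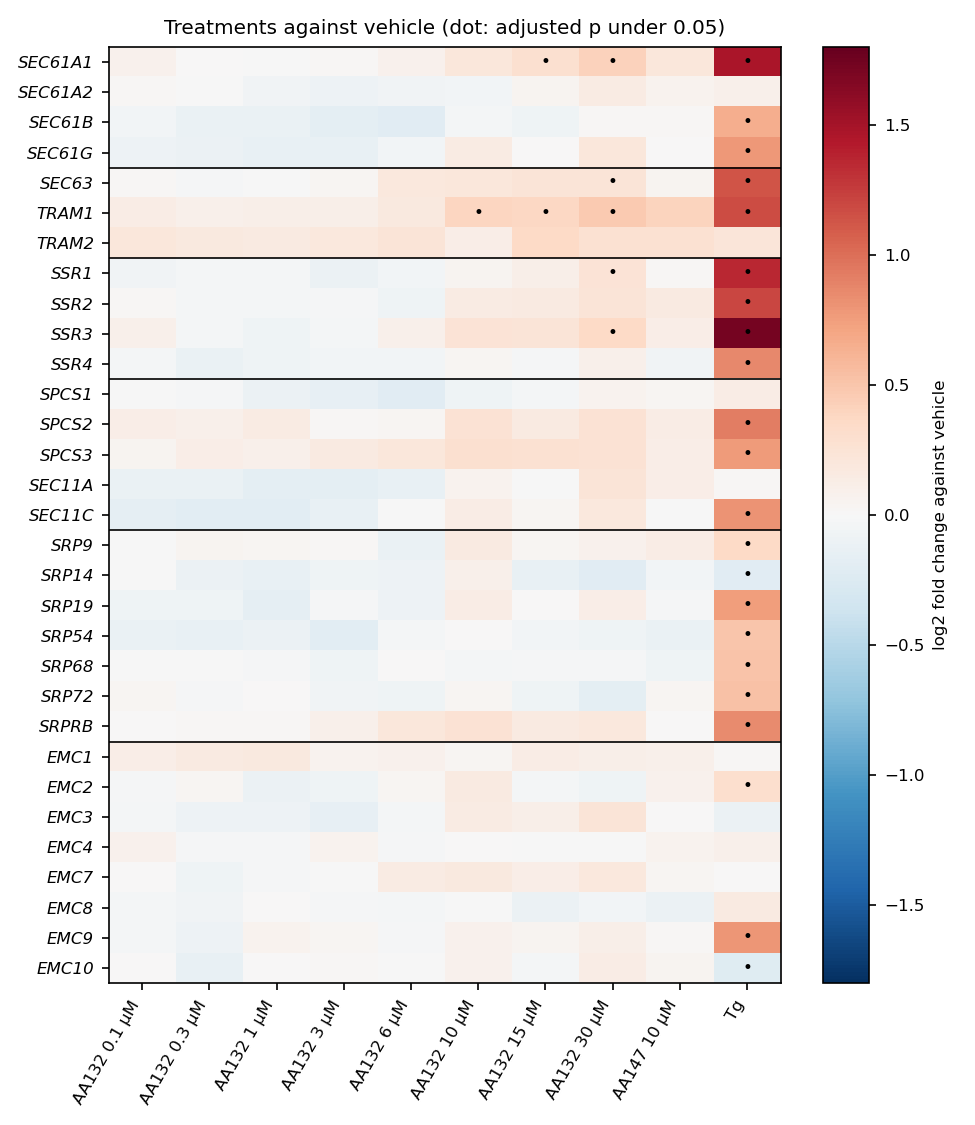
Log2 fold change against vehicle (colour) of the 31 tested genes (rows, lines separate the complexes) in the 10 treatments (columns). Dots mark an adjusted p under 0.05: 22 dots stand in the Tg column, 5 in that of AA132 30 µM, 2 at 15 µM and 1 at 10 µM.

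Over the 8 doses in rising order, the mean CPM of SEC61A1 was 189, 181, 178, 181, 189.8, 206, 218 and 238. TRAM1 means over the same doses were 167, 162, 164, 163, 172, 198, 198 and 210.2 CPM, and those of SSR3 were 59.2, 54.1, 52.6, 54.5, 59.1, 66.3, 65.4 and 71.3 CPM. In all 3 genes the means up to 3 µM lay near the vehicle libraries and those at 10 µM and above lay higher. SEC61A1 read 199, 213 and 206 CPM at 10 µM, 200.4, 209 and 245 CPM at 15 µM and 229.9, 234 and 250.2 CPM at 30 µM. The 30 µM libraries were all above the vehicle values given above, a 1.33-fold rise (log2 0.41 ± 0.065, adjusted p = 1.01e-04). SSR3 stood at 70.4, 70.6 and 72.9 CPM at 30 µM, also above every vehicle library (log2 0.36 ± 0.075, adjusted p = 0.00247). SSR1 read 316, 315 and 319 CPM (log2 0.24 ± 0.058, adjusted p = 0.00704). TRAM1 read 218, 221 and 191 CPM (log2 0.46 ± 0.086, adjusted p = 6.83e-04). Like SSR3, both SSR1 and TRAM1 had no overlap with vehicle at this dose. SEC63 read 210.3, 214 and 195 CPM (log2 0.23 ± 0.066, adjusted p = 0.0305). That SEC63 call was lost in 6 of 11 alternatives, at adjusted p from 0.0504 to 0.329, among them the fits without vehicle library 1 or 3 and without AA132 30 µM library 1 or 2.

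Several members missed the threshold at 30 µM by little. SEC11A was at 0.23 (interval 0.075 to 0.38, adjusted p = 0.0595) and EMC3 at 0.24 (interval 0.078 to 0.40, adjusted p = 0.0596). SSR2 was at 0.23 (adjusted p = 0.0745), and EMC7 at 0.20 (adjusted p = 0.0766). SRP72 was on the other side of 0, at -0.17 (interval -0.30 to -0.048, adjusted p = 0.0820). SEC61B, which rose under Tg, was at 0.016 with an interval of -0.13 to 0.17.

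The AA132 calls changed with single libraries and with the conditions that entered the fit. Without vehicle library 1, 13 members were called at 30 µM, 12 higher and SRP72 lower, with SEC63 lost (adjusted p = 0.0902). The calls over all genes at 30 µM then went from 1255 to 2015. The added calls were SSR2, SSR4, SEC11A, SRPRB, EMC3, EMC7, EMC9 and EMC10 beside SRP72. TRAM1 was then lost at 10 and 15 µM (adjusted p = 0.0538 and 0.0591), and 2 members, SRPRB and EMC7, were called at 10 µM, beside 651 of all genes in place of 250. At 15 µM SEC61A1 kept its call and SRPRB gained one (adjusted p = 0.0457 and 0.0277), beside 636 of all genes in place of 491. At 10 µM 2 members were called without vehicle library 2, beside 317 of all genes. Without AA132 10 µM library 1 it was 3 members, TRAM1 not among them, beside 340 of all genes. In a fit chosen after seeing the data, without library 1 of both AA132 10 µM and AA147, 4 members were called at 10 µM: TRAM1, SEC63, SSR3 and SRPRB, beside 381 of all genes. At 15 µM 4 were called without vehicle library 2, and 0 without AA132 15 µM library 3, beside 920 and 267 of all genes in place of 491. With only the 2 conditions compared in the fit, 0 members were called at 10, 15 or 30 µM, and the calls over all genes were 8, 46 and 74. DESeq2 called 4, 5 and 9 members there, beside 466, 764 and 1669 of all genes.

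Dose dependence was also tested without vehicle, as a slope on log10 dose over the 24 AA132 libraries. Of 31 members, 14 rose with dose and SRP72 fell, beside 18.7% of all 17553 genes tested, 9.82% rising and 8.89% falling. SEC11C had the steepest slope, 0.15 ± 0.025 log2 units per 10-fold dose (adjusted p = 5.60e-05). Its CPM was 115, 124 and 119 at 0.1 µM and 149, 145 and 163 at 30 µM. The SEC11C means at 0.1, 0.3 and 1 µM were 119, 117 and 118 CPM, below the vehicle mean of 134 CPM. At 30 µM the mean was 152 CPM, which was not called against vehicle. The slope thus spans low values at the low doses as well as a rise above vehicle. TRAM1 (0.14 ± 0.025), SEC61A1 (0.13 ± 0.026) and SSR3 (0.13 ± 0.031) followed, all in the same unit. The other risers were SEC61G, SEC63, SSR1, SSR2, SPCS3, SEC11A, SRP19, SRPRB, EMC3 and EMC7. SEC11A also rose, at 0.11 ± 0.028 (adjusted p = 0.00366). Its means at 0.1, 0.3 and 1 µM, 281, 281 and 270 CPM, also lay below the vehicle mean of 306 CPM. SRP72 fell, at -0.056 ± 0.018 (adjusted p = 0.0278), a call lost in 7 alternatives, among them the fits without any 1 library of 30 µM. SSR2 and SRP19 were lost without AA132 30 µM library 3 (adjusted p = 0.0554 and 0.0558), and SPCS3 without library 2 of that dose (0.0552). SPCS3 and SRP19 were also lost without AA132 0.1 µM library 3 (0.0556 and 0.0517). Without the AA132 libraries in which HMOX1 went against the dose label (1 µM library 1 and 3 µM library 3, a fit chosen after seeing the data), 16 slopes were called, the same 15 and EMC9 (adjusted p = 0.0353). Without the 30 µM dose 7 slopes were called, all rising: SEC61A1, SEC63, TRAM1, SPCS3, SEC11C, SRPRB and EMC7. Over all genes these 2 fits called 3309 and 2046 slopes, in place of 3285.

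AA147 and AA132 were compared at 10 µM, the dose they share, as 1 pair of compounds. AA147 against vehicle gave 0 called members in the edgeR test, beside 0.0225% of all genes. At an unadjusted p under 0.05 there were 3 members and 1211 of all genes, and DESeq2 called 1 member and 26 of all genes against 4 in edgeR. TRAM1 was nearest, at 229, 187 and 185 CPM under AA147 against 127, 161 and 169.6 CPM in vehicle (log2 0.40 ± 0.086, adjusted p = 0.107). It passed the test without vehicle library 3 (adjusted p = 0.0473).

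In the direct test of AA132 against AA147 at 10 µM, 0 members were called by edgeR or by DESeq2, beside 0.0674% of all genes, and 4 members and 1426 of all genes had an unadjusted p under 0.05. DESeq2 called 55 of all genes in this test, against 12 in edgeR, which became 77 without AA132 10 µM library 1. Without library 1 of both compounds together, a fit chosen after seeing the data, 0 members and 19 of all genes were called. The largest difference was in SRPRB, at 62.2, 72.1 and 71.6 CPM under AA132 and 57.4, 59.7 and 56.4 CPM under AA147 (log2 0.25, interval 0.096 to 0.40, adjusted p = 0.295). TRAM1 was at 212, 196 and 187 CPM under AA132, with a difference of -0.014 (interval -0.19 to 0.16). For SEC61A1 it was -0.0015 (interval -0.13 to 0.13). Of the 31 intervals 27 included 0, and the bounds over all of them ran from -0.39, in TRAM2, to 0.40, in SRPRB. Missing the threshold does not show that the compounds act alike.

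AA132 at 30 µM was tested directly against Tg, a comparison in which vehicle plays no part. Of 31 members, 21 were lower with AA132, 4 were higher and 6 were not called, beside 29.8% of all genes, 15.5% lower and 14.3% higher. The median difference was -0.57 over the members and -0.011 over all genes. The largest gap was in SSR3, at -1.37 ± 0.075 (adjusted p = 9.60e-16), followed by SSR1 at -1.11 and SEC61A1 at -1.07. All 4 SSR genes and 6 of 7 SRP and receptor genes were lower. SRP72 differed by -0.71 ± 0.062 (adjusted p = 7.21e-11), from 233, 239.9 and 245 CPM under Tg to 144, 151 and 145 CPM with AA132, beside 145, 167 and 184 CPM in vehicle.

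The 4 members higher with AA132 than with Tg were SEC11A, EMC3, EMC7 and EMC10. EMC10 was at 203, 187 and 201 CPM with AA132 (difference 0.35 ± 0.080, adjusted p = 9.12e-04). EMC3 read 78.7, 86.8 and 94.7 CPM with AA132 and 70.6, 67.6 and 67.7 CPM under Tg (difference 0.34 ± 0.079, adjusted p = 0.00118). SEC11A read 338, 359.6 and 378 CPM with AA132, all above the Tg libraries given above (difference 0.21 ± 0.075, adjusted p = 0.0318). The SEC11A call was lost in 4 alternatives, at adjusted p from 0.0545 to 0.132: without Tg library 2 or 3, and without AA132 30 µM library 2 or 3. EMC7 read 79.5, 81.6 and 87.05 CPM with AA132 and 71.8, 73.2 and 72.95 CPM under Tg (difference 0.19 ± 0.069, adjusted p = 0.0370). Its call was lost in 6 alternatives, at adjusted p from 0.0605 to 0.159, among them the fits without any 1 Tg library. Of the members lower with AA132, SRP9 lost its call in 4 alternatives (adjusted p from 0.0527 to 0.0963) and EMC8 in 7 (0.0505 to 0.137), the latter without any 1 library of either group.

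At AA132 30 µM the other pathway genes had 2 calls of 22, both higher. That is 9.09%, near the 7.05% called over all genes. HM13 was at 0.24 ± 0.072 (adjusted p = 0.0390) and NOMO2 at 0.18 ± 0.058 (adjusted p = 0.0494). HMOX1 averaged 13.1 CPM in vehicle, 25.5 CPM under Tg and 201 CPM at 30 µM. HSPA5 averaged 2636 CPM at that dose. Their part in the members' values was not tested.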

How the data were processed

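RNA sequencing of HEK293T cells in 11 conditions gave 33 libraries, 3 numbered columns a condition. The labels list 1 sample a condition and do not say what the numbers stand for. Columns of a condition differed beyond counting error (chi-square per degree of freedom from 4.48 to 59.4, median 7.56 over 33 pairs), so they were treated as replicate libraries. The deposited table holds expected counts (estimated reads per gene, called linear total reads per the file headers), not scaled between libraries. The build was GRCh38.p7, per the submitters' processing notes. Which aligner, counter and annotation were used, and whether strand was used, is not given in the sources used here. The value 0.009 stands in place of 0 in 43.5% of cells and was set to 0, 3.22% of cells were fractional, and values were rounded. The 102 entries that share 47 names were summed, which turned 38074 entries into 38019 names.

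Totals of 32.27 to 37.96 M counts a library set the counting precision, and without molecular identifiers such reads need not be independent molecules. Genes were tested in edgeR 4.0.16 (R 4.3.3) by quasi-likelihood F-test, with TMM scaling and the package's filter on low counts, with all 11 conditions in 1 fit and no block (17792 genes, coefficient of variation 9.09% between libraries). A call needs a p, adjusted over all genes tested (Benjamini-Hochberg), below 0.05. Standard errors were taken from the fold change and its F value, and intervals are 95%. CPM are counts scaled to TMM library sizes. The slope on log10 dose was fitted on the 24 AA132 libraries alone (17553 genes). The code was tested on simulated data. Alternatives were DESeq2 1.42.0, its style of size factors in edgeR, no filter, a replicate block, only the conditions compared, each library left out, and the slope without 30 µM. Chosen after seeing the data were fits without pairs of libraries that stood apart or went against their dose label.

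Gene positions are from GENCODE v44 on GRCh38 and promoter windows from RefSeq on GRCh38.p14, neither of which entered the counting. GET1 and GET3 were found under the older names WRB and ASNA1. The members, the other pathway genes and the promoter letters were chosen with earlier results of these data known. Any member could be named, and members called in at least 1 comparison are given by library. No set test or protein sequence was used.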

Additional observations from a re-analysis of the deposited data

How the results depend on the processing

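None of the 70 called changes of members turned sign under an alternative run, while 294 of 5115 alternative values did so where the change was not called (lowest adjusted p after the turn 0.236). The count of 22 members under Tg was 21 with a replicate block, which cost SRP14 its call, and the block gave 3 in place of 2 members at AA132 15 µM and changed no other count. Over all genes the block gave 5572 calls under Tg and 486 at AA132 15 µM, in place of 5551 and 491. No pairing by library number was seen over all genes: the correlation of deviations between libraries of the same number had a median of 0.000612, from -0.147 to 0.183. Of 33 libraries 13 correlated best with their own number. Counting error in low genes draws such correlations toward 0, so they cannot decide whether the numbers pair the libraries. Library 1 was the one that stood apart in vehicle, AA132 10 µM and AA147. DESeq2 called 1 member under AA147, and 4, 5 and 9 members at AA132 10, 15 and 30 µM. Without the filter on low counts 1 member was called under AA147, beside 89 of all genes in place of 4. With only the conditions compared in the fit, 0 members were called at AA132 10, 15 and 30 µM. The slope without 30 µM gave 7 members, beside 2046 of all genes in place of 3285. Leaving out 1 library at a time gave 19 to 21 members under Tg, 0 to 1 under AA147, 0 to 0 at AA132 0.1, 0.3, 1 and 3 µM, 0 to 1 at 6 µM, 1 to 3 at 10 µM, 0 to 4 at 15 µM and 4 to 13 at 30 µM. The same ranges were 0 to 0 for AA132 against AA147, 21 to 23 for AA132 30 µM against Tg and 12 to 16 for the slope. Calls over all genes in those fits moved too: 4571 to 5768 under Tg, 156 to 651 at AA132 10 µM and 267 to 920 at 15 µM. At 30 µM they ran from 700 to 2015, for AA132 30 µM against Tg from 4360 to 4605, and for the slope from 2784 to 3656. In fits chosen after seeing the data, leaving out library 1 of both AA132 10 µM and AA147 gave 4 members at AA132 10 µM. The cause of these shifts was not tested. Where a group loses a library, the fit rests on the spread pooled over all conditions.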
